A study of Mus musculus with 47 samples.

Results

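Nr1d2 and Rora encode the nuclear receptors of the stabilising loop of the circadian clock, and their transcripts were followed over the day in mouse muscle stem cells on 2 diets. A probe set is a group of short array probes that together measure a transcript. Every probe set annotated to one of these symbols and to no other gene was taken. This gave 7 of the 28898 probe sets with 1 gene symbol, 2 for Nr1d2 and 5 for Rora.

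Satellite cells, which rebuild muscle fibres after injury, came from 47 wild type female C57B6/J mice with 1 array each. The high-fat groups held 23 mice, 4 at each of ZT0, ZT4, ZT8, ZT12 and ZT20 and 3 at ZT16. The control groups held 24 mice, 4 at each of the same 6 times. Both diets started at 8 weeks of age and lasted 7 weeks, and the mice were 15 weeks old at collection. ZT is zeitgeber time, counted in hours of the light cycle, and the times were 4 h apart. The mice of a time point, of either diet, were collected on 1 day. Time of day and collection day therefore cannot be told apart within a diet, while each comparison of diets at a time lies within a day.

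NR1D2 (REV-ERB beta) is a repressor and RORα an activator of transcription. Both bind the same short DNA element, the ROR response element or RORE, so that they compete at genes such as Arntl, which encodes the clock activator BMAL1. REV-ERB proteins bind heme and recruit the corepressor NCOR with the deacetylase HDAC3. BMAL1 with CLOCK or NPAS2 in turn drives Nr1d2 through E-boxes, which closes the loop.

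The genes lie at chr14:18204056-18239106 (Nr1d2, minus strand) and chr9:68653404-69388246 (Rora, plus strand) of GRCm38.p6. Which exons or transcripts each probe set covers is not given in the sources used here. RefSeq promoter windows of GRCm38.p6, 250 bases before to 50 bases after a start, were found for both genes. Both strands were searched for the core of the RORE (AGGTCA or GGGTCA, the ROR half-site), the E-box CACGTG, its variant CACGTT and the D-box (TTATGTAA or TTACGTAA). The Nr1d2 window held 1 match, an ROR half-site that begins 77 bases before the start, and the Rora window held no match. The 250 bases before the Nr1d2 start (chr14:18239107-18239356, minus strand) are shown 5′ to 3′ with the half-site in capitals, because it is the match found among the 2 receptor genes.
Nr1d2 promoter: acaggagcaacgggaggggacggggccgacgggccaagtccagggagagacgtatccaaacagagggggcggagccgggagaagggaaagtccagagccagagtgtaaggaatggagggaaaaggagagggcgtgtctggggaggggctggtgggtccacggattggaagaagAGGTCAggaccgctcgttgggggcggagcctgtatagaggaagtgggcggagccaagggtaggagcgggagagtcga

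Of the 5 measured genes that are known to be RORE-driven, 3 held a half-site in a RefSeq window. They are shown as 30 bases each because these genes are read beside the receptors further on. Capitals mark the half-site, which lies on the opposite strand in Clock and Nfil3. It lies after the start in Arntl and before it in Clock and Nfil3. The windows are chr7:113207530-113207559 (Arntl, plus strand), chr5:76303604-76303633 (Clock, minus strand) and chr13:52981034-52981063 (Nfil3, minus strand).
Arntl: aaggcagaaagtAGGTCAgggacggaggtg
Clock: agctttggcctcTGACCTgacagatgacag
Nfil3: ggcgctcggaacTGACCTactaacacacat
An ROR half-site occurs in 27.5% of all 32851 promoter windows of this length. An E-box occurs in 7.15%, CACGTT in 4.68% and a D-box in 1.06%. These shares are per window, while the count of RORE-driven genes above is per gene. Arntl and Clock have several windows each, and not all of them held a match. A match is only a description of these letters, not a binding site.

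The values are the log2 expression values that the authors deposited, and arrays have no read depth. The medians of the arrays ranged from 5.86 to 5.94. Over the 28898 probe sets, mice of a group had a median SD of 0.17. All 8 satellite cell markers, among them Pax7 and Myf5, were measured. Their mean level per mouse was 9.78 to 10.27 in high-fat mice and 9.80 to 9.999 in control mice. All 5 myofibre markers lay at or under the highest of the 23 nonspecific control probe sets (7.59). Smooth muscle and pericyte markers (4 of 5 measured, none at or under that level) averaged 8.84 to 10.20 in high-fat mice and 9.20 to 10.55 in control mice. Control ZT20 replicate 2 stood apart, with an endothelial marker mean of 8.72 where the next mouse had 7.03. For Nr1d2 and Rora, the control rhythm calls are given without this mouse as well. So are the called control steps into or out of ZT20 of the brightest probe set of each gene. Their other results are given with it, apart from ranges over each mouse left out in turn. The marker genes and the other genes named below were not refitted without it. In bulk RNA, fewer cells of a type and less RNA per cell cannot be told apart.

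Nr1d2 swung strongly over the day on both diets, with a fitted peak 2.89 (control) to 3.03 (high-fat) times the trough in its brighter probe set. Its probe set with the highest mean, 1416959_PM_at, was highest at ZT8 and ZT12 and lowest at ZT20. At ZT0 its log2 values were 8.76, 9.06, 8.75 and 9.04 in high-fat mice and 9.10, 8.90, 8.98 and 9.08 in control mice. At ZT4 they were 9.48, 9.88, 9.66 and 9.64 in high-fat mice and 9.78, 9.90, 9.64 and 9.63 in control mice. On both diets each ZT4 mouse lay above each ZT0 mouse. At ZT8 the high-fat mice had 10.03, 9.97, 10.01 and 10.05, and the control mice 10.19, 9.70, 9.95 and 10.04. At ZT12 the high-fat mice had 10.08, 10.18, 9.79 and 9.82, and the control mice 9.94, 10.01, 9.75 and 10.10. These were the 2 times of the highest means, and their ranges overlapped within each diet. At ZT16 the values were 9.54, 9.12 and 9.31 in high-fat mice and 9.11, 9.36, 9.29 and 9.18 in control mice. At ZT20 they were 8.44, 8.22, 8.79 and 8.20 in high-fat mice and 8.29, 8.19, 8.23 and 8.98 in control mice. High-fat and control ranges of this probe set overlapped at 6 of 6 times. The second probe set, 1416958_PM_at, had 8.64, 8.62, 8.87 and 8.66 in high-fat mice and 8.56, 8.31, 8.58 and 8.57 in control mice at ZT12. There each high-fat mouse lay above each control mouse, with a difference of 0.19 ± 0.15 that did not pass (adjusted p = 0.651, limma), and at the other times its ranges overlapped. How often diet ranges lie apart over all probe sets was not counted, here or below.

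**Figure D1:**
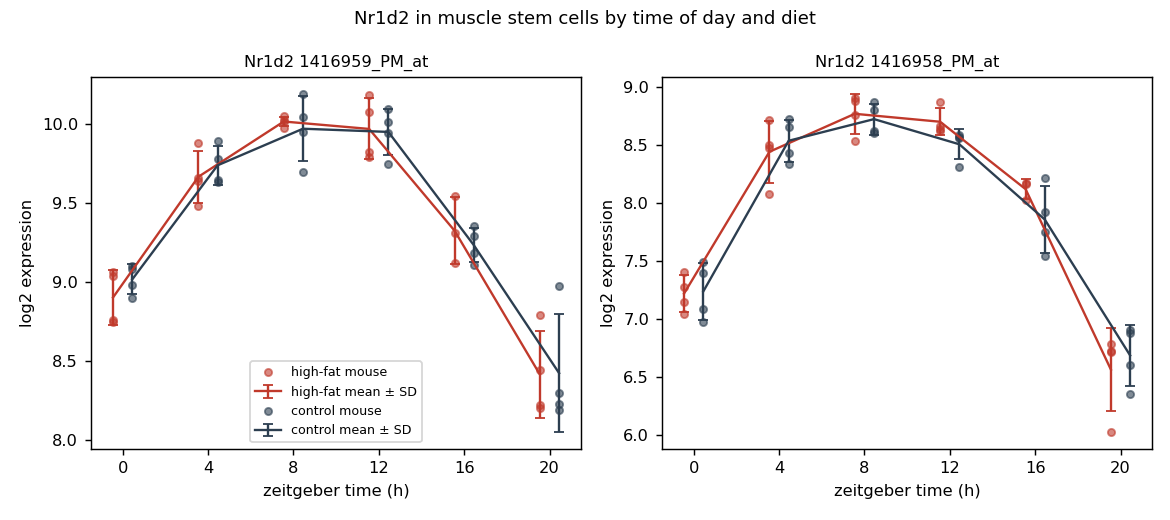
Log2 expression of both Nr1d2 probe sets against zeitgeber time in hours; points are mice, lines and bars the mean ± SD of 4 mice (3 at high-fat ZT16), high-fat in red and control in dark blue. Both diets are high at ZT8 and ZT12 and low at ZT20, with means of 10.02 (high-fat) and 9.97 (control) at ZT8 and 8.41 (high-fat) and 8.42 (control) at ZT20 for 1416959_PM_at.

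A 24 h cosine was fitted within each diet, and its amplitude is the height of the peak over the curve's own mean. For 1416959_PM_at the amplitude was 0.80 ± 0.06 (SE, n = 23) in high-fat mice and 0.77 ± 0.06 (SE, n = 24) in control mice. The adjusted p (limma with Benjamini-Hochberg adjustment over all 28898 probe sets, threshold 0.05 throughout) was 3.79e-11 in high-fat mice and 9.25e-11 in control mice. The fitted peak exceeded the trough 3.03-fold in high-fat mice and 2.89-fold in control mice. The second probe set, 1416958_PM_at, had an amplitude of 1.09 ± 0.09 in high-fat mice and 1.02 ± 0.09 in control mice. Its ZT20 means of 6.57 (high-fat) and 6.69 (control) lay under the highest nonspecific control of 7.59, so no fold is given for it. Both probe sets placed the peak between ZT8 and ZT12. The fitted peaks were at 8.95 ± 0.321 h and 9.07 ± 0.326 h in high-fat mice, and at 8.62 ± 0.321 h and 8.64 ± 0.336 h in control mice. Over the 12 group means they correlated at r = 0.986, but these points share mice and arrays. Without control ZT20 replicate 2 the control amplitude of 1416959_PM_at was 0.72 (adjusted p = 8.41e-10).

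Tests of each 4 h step placed the rise of Nr1d2 in the hours around ZT0 and its fall after ZT12. Both probe sets passed from ZT0 to ZT4, upward, when 9.67% of all probe sets passed in either direction in high-fat mice and 7.78% in control mice. The change of 1416959_PM_at in that step was 0.76 ± 0.13 in high-fat mice and 0.72 ± 0.13 in control mice (SE; adjusted p = 0.000355 high-fat and 0.000648 control, limma). Neither probe set passed from ZT4 to ZT8, against a background of 0.536% (high-fat) and 3.96% (control). Neither passed from ZT8 to ZT12, against 4.14% (high-fat) and 6.44% (control). Over these steps 1416959_PM_at changed by 0.35 ± 0.13 and then -0.05 ± 0.13 in high-fat mice, and by 0.23 ± 0.13 and then -0.02 ± 0.13 in control mice. From ZT12 to ZT16 both probe sets passed, downward, on both diets, where 7.71% (high-fat) and 6.59% (control) of all probe sets did so in either direction. The change of 1416959_PM_at was -0.64 ± 0.15 in high-fat mice and -0.72 ± 0.13 in control mice. From ZT16 to ZT20 both passed again, downward, with a background of 8.55% (high-fat) and 3.46% (control). This was the steepest step of the day for 1416959_PM_at, with -0.91 ± 0.15 in high-fat mice and -0.81 ± 0.13 in control mice. Without control ZT20 replicate 2 the control change was -0.73 (adjusted p = 0.00317). From ZT20 to ZT0 both passed upward, with a background of 3.11% (high-fat) and 5.95% (control). That rise of 1416959_PM_at was 0.49 ± 0.13 in high-fat mice (adjusted p = 0.0344) and 0.59 ± 0.13 in control mice (adjusted p = 0.00601). Without control ZT20 replicate 2 the control rise was 0.52 (adjusted p = 0.036). The high-fat call for that step was lost without high-fat ZT0 replicate 2 or 4 or high-fat ZT20 replicate 1, 2 or 4, where the change was 0.42 to 0.50 (adjusted p up to 0.123).

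Rora had smaller daily changes than Nr1d2, and late fitted peaks. Of its 5 probe sets, 4 had a mean above every nonspecific control. Their fitted peak-to-trough ratios were 1.21-fold to 1.63-fold over both diets. The observed means of the 6 times spanned 1.24-fold to 2.00-fold in these 4, the most in 1436326_PM_at in control mice. The Rora probe set with the highest mean was 1420583_PM_a_at, at the 99.1 percentile of all probe sets. At ZT0 its log2 values were 11.36, 11.23, 11.28 and 11.43 in high-fat mice and 11.25, 11.22, 11.27 and 11.37 in control mice. At ZT4 they were 11.05, 10.99, 11.04 and 10.99 in high-fat mice and 11.09, 11.30, 11.26 and 11.31 in control mice. The ranges did not overlap at ZT4, where each high-fat mouse lay under each control mouse. At ZT8 the high-fat mice had 10.97, 11.05, 11.15 and 11.19, and the control mice 11.09, 10.99, 10.97 and 11.12. At ZT12 the high-fat mice had 11.23, 11.15, 10.98 and 11.01, and the control mice 11.05, 11.20, 10.998 and 10.83. The diets overlapped at both of these times. At ZT16 the values were 11.22, 11.30 and 11.26 in high-fat mice and 11.16, 11.07, 11.19 and 10.97 in control mice. At ZT20 they were 11.35, 11.11, 11.16 and 11.46 in high-fat mice and 11.49, 11.30, 11.38 and 11.35 in control mice. The ranges were again apart at ZT16, here with each high-fat mouse above each control mouse, and they overlapped at ZT20. How often this happens over all probe sets was not counted.

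**Figure D2:**
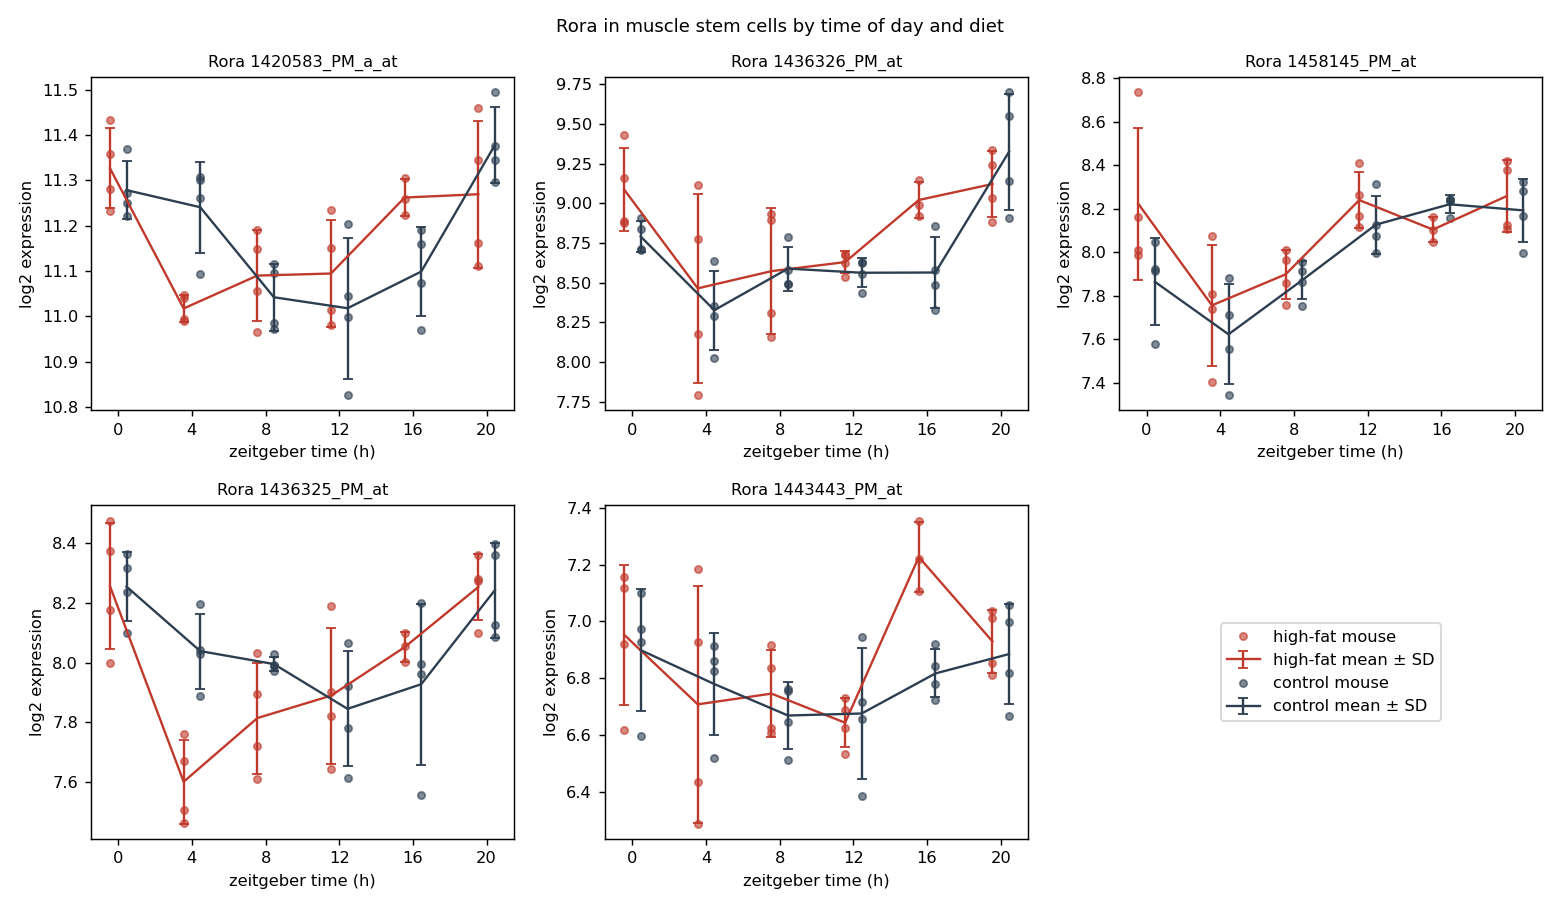
Log2 expression of the 5 Rora probe sets against zeitgeber time in hours, each panel with its own axis; points are mice, lines and bars the mean ± SD of 4 mice (3 at high-fat ZT16), high-fat in red and control in dark blue. In 1420583_PM_a_at the high-fat mean was 11.02 at ZT4 and 11.26 at ZT16, against control means of 11.24 at ZT4 and 11.10 at ZT16.

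The cosine of 1420583_PM_a_at had an amplitude of 0.14 ± 0.03 in high-fat mice (adjusted p = 0.0088) and of 0.18 ± 0.03 in control mice (adjusted p = 0.000908, limma). These are fitted peak-to-trough ratios of 1.21-fold in high-fat mice and 1.28-fold in control mice. The fitted peak fell at 19.9 ± 0.889 h in high-fat mice and at 22.8 ± 0.679 h in control mice. With the collection day as a random block the high-fat call was lost (adjusted p = 0.0859) and the control call held (adjusted p = 0.0249). The same block left the Nr1d2 adjusted p at 2.32e-09 in high-fat mice and 4.19e-09 in control mice. Over both genes, 6 of the 7 probe sets passed the rhythm test in high-fat mice, where 10.1% of all probe sets passed, and 6 of 7 in control mice, where 6.42% passed. With the day block 3 of 7 passed in high-fat mice, where 3.12% of all probe sets did, and 4 of 7 in control mice, where 1.55% did. A time-of-day F test, which assumes no curve shape, called 7 of 7 in high-fat mice (28.3% of all probe sets) and 6 of 7 in control mice (27.1%).

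Some cell type markers had called rhythms of a like size, where 10.1% (high-fat) and 6.42% (control) of all probe sets passed. Of the smooth muscle and pericyte markers 1 of 4 passed on each diet, Acta2, a smooth muscle actin, with 0.28 ± 0.06 in high-fat mice (peak at 4.08 ± 0.794 h, adjusted p = 0.00563) and 0.30 ± 0.06 in control mice (peak at 0.927 ± 0.728 h, adjusted p = 0.00214, limma). Of the 8 satellite cell markers, 3 passed in high-fat mice (Cdh15, Calcr and Chrdl2, amplitudes 0.22 to 0.31) and 2 in control mice (Pax7 and Cdh15, 0.16 and 0.27). Of the myofibre markers 0 of 5 passed in high-fat mice and 1 of 5 in control mice, Acta1, whose peak at 19.6 ± 0.819 h had an amplitude of 0.91 ± 0.19 at a mean of 6.53, under the highest nonspecific control. None of the endothelial, immune, fibro-adipogenic, Schwann, adipocyte or erythroid markers measured passed on either diet. Their part in the Rora rhythm was not tested.

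The other Rora probe sets shared the late peak but differed in its hour and in how firmly it was called. For 1436326_PM_at the amplitude was 0.35 ± 0.09 in high-fat mice (peak at 19.7 ± 0.99 h) and 0.32 ± 0.09 in control mice (peak at 19.97 ± 1.05 h). It was called on both diets, with adjusted p-values of 0.0222 (high-fat) and 0.0481 (control). Leaving out each of the 47 mice in turn kept its high-fat call in 46 cases and its control call in 12. The losses reached an adjusted p of 0.0535 in high-fat mice, without high-fat ZT8 replicate 2, and of 0.144 in control mice, without control ZT20 replicate 3. 1436325_PM_at had an amplitude of 0.29 ± 0.06 in high-fat mice (peak at 19.6 ± 0.743 h, adjusted p = 0.00155) and of 0.20 ± 0.05 in control mice (peak at 23.2 ± 1.04 h, adjusted p = 0.0453). Its high-fat call held in all 47 cases, and its control call in 32, with an adjusted p of up to 0.103, without control ZT12 replicate 4. 1458145_PM_at peaked earlier, at 17.8 ± 1.01 h in high-fat mice (amplitude 0.22 ± 0.06, adjusted p = 0.0342) and at 16.2 ± 0.734 h in control mice (0.30 ± 0.06, adjusted p = 0.00235). Its high-fat call held in 40 of the 47 cases, with an adjusted p of up to 0.0857, without high-fat ZT4 replicate 1. The dimmest probe set, 1443443_PM_at, had a mean of 6.82, under the highest nonspecific control of 7.59, and passed on neither diet (adjusted p = 0.0778 high-fat and 0.341 control). Its high-fat rhythm passed with array weights (adjusted p = 0.0374) and without high-fat ZT4 replicate 4 (adjusted p = 0.0298). Without control ZT20 replicate 2, which stood apart in endothelial markers, 4 of the 7 probe sets passed in control mice. The 2 lost there were 1436326_PM_at (adjusted p = 0.0846) and 1436325_PM_at (adjusted p = 0.0528).

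Few single steps of Rora were large enough to pass. From ZT0 to ZT4 in high-fat mice, 4 of the 5 probe sets passed, all downward (9.67% of all probe sets in either direction), the largest change being -0.66 ± 0.12 in 1436325_PM_at. In the same step 1420583_PM_a_at changed by -0.31 ± 0.07 in high-fat mice (adjusted p = 0.0043) and by -0.04 ± 0.07 in control mice (adjusted p = 0.814, limma). No Rora probe set passed in that step in control mice (background 7.78%). The late rise was called in control mice from ZT16 to ZT20 in 2 of the 5 (background 3.46%), with 0.28 ± 0.07 in 1420583_PM_a_at (adjusted p = 0.019) and 0.76 ± 0.19 in 1436326_PM_at (adjusted p = 0.0192). The call of 1420583_PM_a_at was lost without control ZT16 replicate 4 or control ZT20 replicate 1, with a change of 0.24 in each case (adjusted p up to 0.0986). Without control ZT20 replicate 2 that call held (0.31, adjusted p = 0.0235). The step of 1436326_PM_at was not recomputed with mice left out. On the high-fat diet 1443443_PM_at alone passed from ZT12 to ZT16, upward, with 0.58 ± 0.15 (background 7.71%). The remaining steps held no Rora call on either diet. The change of 1420583_PM_a_at from ZT4 to ZT8 in control mice passed with array weights (-0.22, adjusted p = 0.0398) and after cyclic loess normalization (-0.22, adjusted p = 0.0462).

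Averaged over the 6 times, diet changed neither receptor detectably. None of the 7 probe sets passed the limma test of the mean diet difference (0 of 7 also at an unadjusted p under 0.05), while 7.32% of all probe sets did. For Nr1d2 1416959_PM_at the high-fat minus control difference was -0.01 with a 95% interval of -0.12 to 0.11, a ratio between 0.921-fold and 1.08-fold. For Rora 1420583_PM_a_at it was 0.00 with an interval of -0.06 to 0.06, a ratio between 0.960-fold and 1.04-fold. The widest interval was that of 1436326_PM_at, from -0.04 to 0.28 around 0.12.

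At single times, no probe set of either gene passed in limma. The shares of all probe sets given here are at an adjusted p under 0.05. Their shares at an unadjusted p under 0.05, which cannot be smaller, were not counted. At ZT4, where 0.246% of all probe sets passed, 2 of the 7 had an unadjusted p under 0.05, both for Rora and both lower in high-fat mice. Rora 1420583_PM_a_at differed by -0.22 ± 0.07 (adjusted p = 0.16) and 1436325_PM_at by -0.44 ± 0.12 (adjusted p = 0.0898). The high-fat mice had 7.46, 7.51, 7.76 and 7.67 in 1436325_PM_at at that time, and the control mice 7.89, 8.19, 8.04 and 8.03, without overlap. The other 3 Rora probe sets did not share this, since 1436326_PM_at differed by 0.14 ± 0.19, 1458145_PM_at by 0.13 ± 0.13 and 1443443_PM_at by -0.07 ± 0.14. At ZT16, where 9.82% passed, 3 of the 7 had an unadjusted p under 0.05, all for Rora and all higher in high-fat mice. The differences were 0.16 ± 0.08 in 1420583_PM_a_at (adjusted p = 0.173), 0.46 ± 0.21 in 1436326_PM_at (adjusted p = 0.162) and 0.41 ± 0.15 in 1443443_PM_at (adjusted p = 0.0809). In each of these 3 probe sets the diet ranges lay apart at ZT16. How often ranges lie apart at ZT4 or ZT16 over all probe sets was not counted. The high-fat ZT16 group has 3 mice. At this time the satellite cell markers Calcr (0.59 ± 0.18) and Sdc4 (0.25 ± 0.05) were higher and Chrdl2 (-0.48 ± 0.11) lower in high-fat mice, with adjusted p-values of 0.0305, 0.00171 and 0.00441. Their part in the Rora values was not tested. At ZT0 1 of the 7, Rora 1458145_PM_at, had an unadjusted p under 0.05, with 0.36 and an interval of 0.09 to 0.62 (adjusted p = 0.149; 1.73% of all probe sets passed). At ZT8, ZT12 and ZT20 no member had an unadjusted p under 0.05, and 1.58% (ZT8), 0.332% (ZT12) and 0.512% (ZT20) of all probe sets passed.

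**Figure D3:**
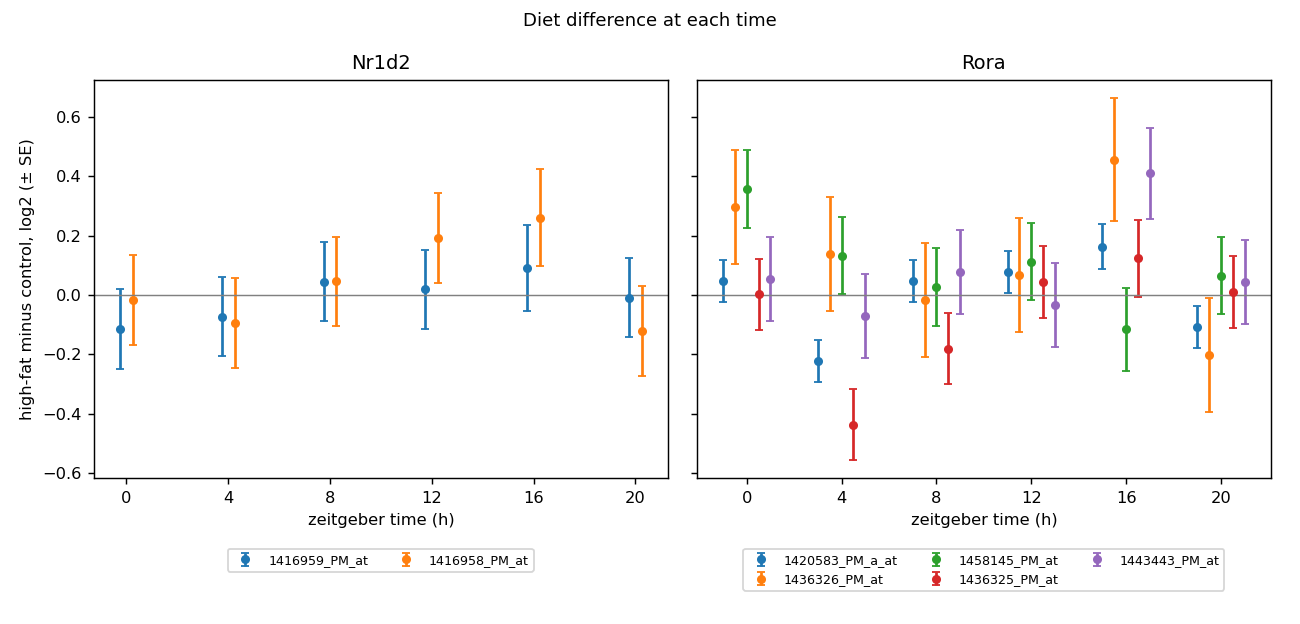
High-fat minus control difference in log2 expression (± SE) at each zeitgeber time in hours, for the 2 Nr1d2 and the 5 Rora probe sets, with probe sets set side by side at each time. No point passed the threshold; the most negative is -0.44 in Rora 1436325_PM_at at ZT4 and the most positive 0.46 in Rora 1436326_PM_at at ZT16.

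The difference in rhythm between the diets was tested directly and passed in limma for 0 of the 7 probe sets, against 0.806% of all probe sets. At an unadjusted p under 0.05 there were 2, both for Rora. For this test and the interaction below, the share of all probe sets at that unadjusted level was not counted. For 1420583_PM_a_at the fitted peak was -2.83 ± 1.12 h in high-fat mice relative to control, that is earlier (adjusted p = 0.29). For 1436325_PM_at it was -3.66 ± 1.28 h (adjusted p = 0.16). The other Rora probe sets gave -0.277 ± 1.44 h (1436326_PM_at), 1.59 ± 1.25 h (1458145_PM_at) and -2.52 ± 2.17 h (1443443_PM_at), so they did not agree on a direction. The shift of Nr1d2 1416959_PM_at was 0.332 ± 0.454 h (adjusted p = 0.77). The diet by time interaction also passed for 0 of 7, against 7.56%, with 2 at an unadjusted p under 0.05. The smallest was that of Rora 1420583_PM_a_at (adjusted p = 0.0659). It passed without control ZT12 replicate 2 (adjusted p = 0.0377), control ZT4 replicate 1 (0.038) or high-fat ZT20 replicate 4 (0.0328). It also passed with array weights (0.0318) and after cyclic loess normalization (0.0301).

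Rora peaked later in the day than Nr1d2. The fitted peak of Rora 1420583_PM_a_at followed that of Nr1d2 1416959_PM_at by 10.98 h in high-fat mice and by 14.1 h in control mice. Over all 5 Rora probe sets the gap was 8.85 to 10.98 h in high-fat mice and 7.60 to 14.6 h in control mice, shortest on both diets in 1458145_PM_at. Over the 12 group means Nr1d2 1416959_PM_at and Rora 1420583_PM_a_at correlated at r = -0.81. The other Rora probe sets correlated with Nr1d2 1416959_PM_at at -0.836, -0.769, -0.606 and -0.467. The deviations of the 47 mice from their group means correlated at r = 0.004 for the pair of brightest probe sets, and at -0.505 (1443443_PM_at) to 0.443 (1458145_PM_at) over the 5 Rora probe sets. These correlations are descriptions, since the points share arrays and collection days.

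Of the 7 listed genes that these receptors are known to control through ROREs, 5 were measured under 1 symbol, and 5 of these passed the rhythm test in high-fat mice and 4 in control mice, all but Arntl. Over all probe sets 10.1% passed in high-fat mice and 6.42% in control mice. Their median amplitude was 0.42 in high-fat mice and 0.32 in control mice, against 0.09 (high-fat) and 0.08 (control) over all probe sets. Arntl had 1.18 ± 0.21 with a peak at 23.6 ± 0.71 h in high-fat mice (adjusted p = 0.000745) and 0.69 ± 0.21 with a peak at 22.7 ± 1.16 h in control mice (adjusted p = 0.0839, limma). Npas2, the Clock paralogue that also pairs with BMAL1, peaked at 21.3 ± 0.334 h in high-fat mice and at 22.1 ± 0.251 h in control mice, with amplitudes of 0.51 ± 0.04 (high-fat) and 0.64 ± 0.04 (control). Clock itself peaked at 0.0804 ± 0.756 h in high-fat mice and at 23.3 ± 1.03 h in control mice. The fitted peaks of these activators thus lay between ZT20, where the Nr1d2 mean was lowest, and about ZT0, by when Nr1d2 had begun to rise. The repressor Cry1 peaked at 19.7 ± 0.886 h in high-fat mice and at 18.4 ± 0.988 h in control mice. Nfil3, which represses D-box genes, peaked at 18.4 ± 0.557 h in high-fat mice and at 19.6 ± 0.791 h in control mice. No gene of this list passed the test of a rhythm difference between diets. Cry1 was lower in high-fat mice over the 6 times (-0.24 ± 0.05, adjusted p = 0.00261), and was the single gene of the list with such a call. The Cry1 mean of 6.95 lay under the highest nonspecific control of 7.59. Nfil3 passed the diet by time interaction (adjusted p = 0.0142) and was lower in high-fat mice at ZT0 (-0.25 ± 0.07, adjusted p = 0.0445) and ZT8 (-0.28 ± 0.07, adjusted p = 0.0274). Cry1 was also lower in high-fat mice at ZT8 (-0.47 ± 0.12, adjusted p = 0.0346). At ZT16, where 9.82% of all probe sets passed, 1 gene of the list passed and was lower in high-fat mice. The mean diet difference passed for 7.32% of all probe sets and the interaction for 7.56%. The diet difference passed for 1.73% at ZT0 and 1.58% at ZT8.

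**Figure D4:**
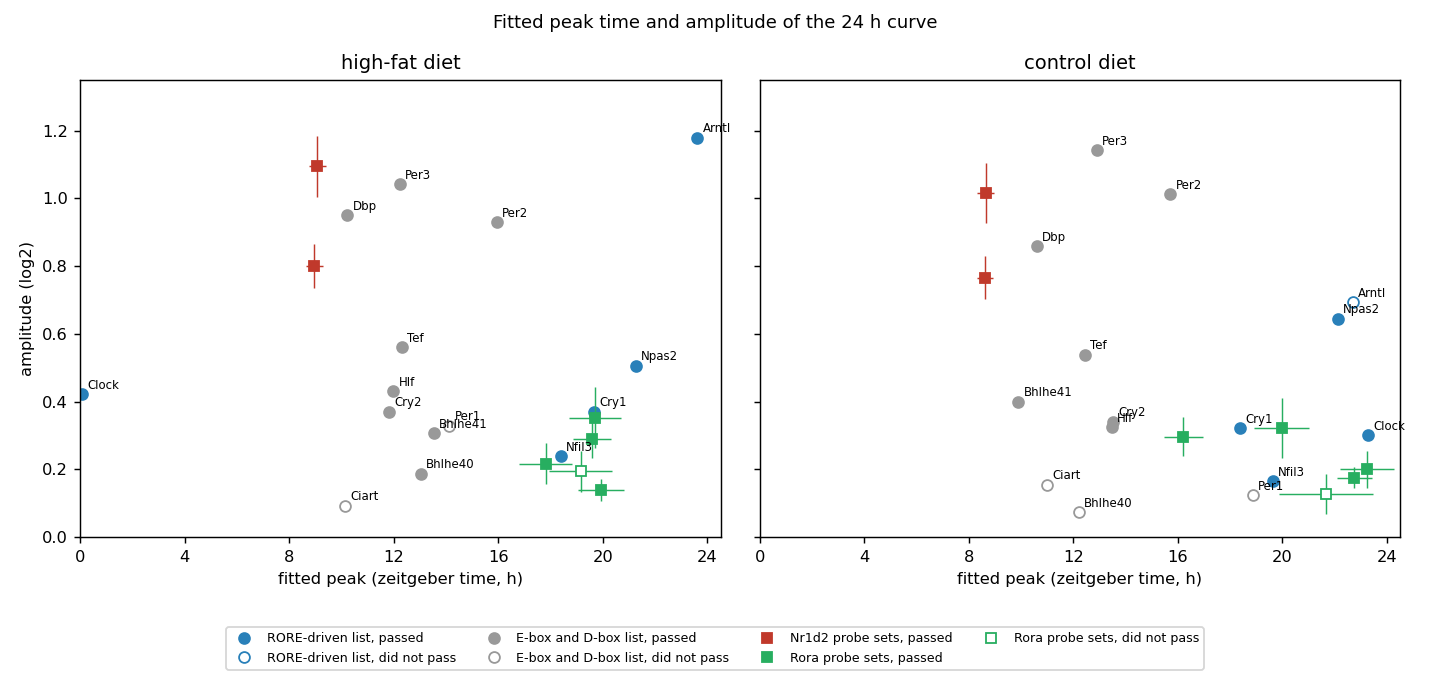
Fitted amplitude (log2) against fitted peak time in hours for the high-fat diet (left) and the control diet (right); squares are Nr1d2 and Rora probe sets with SE bars, circles genes of the RORE-driven and the E-box and D-box lists, and open symbols did not pass. Nr1d2 lies at 8.62 to 9.07 h with amplitudes from 0.77 to 1.09, and the Rora probe sets lie at 16.2 to 23.2 h with amplitudes from 0.13 to 0.35; Clock in high-fat mice lies just after 0 h, which joins 24 h.

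Of the listed genes known to be driven through E-boxes and D-boxes, the arm that includes Nr1d2, 10 were measured. Rhythms passed for 8 of them in high-fat mice and 7 in control mice, against 10.1% (high-fat) and 6.42% (control) of all probe sets. Median amplitudes over the 10 were 0.40 (high-fat) and 0.37 (control). The fitted peaks of those that passed lay at 10.2 to 15.9 h in high-fat mice and at 9.89 to 15.7 h in control mice. Per1 and Ciart passed on neither diet, and Bhlhe40 did not pass in control mice. Dbp, a D-box activator, peaked at 10.2 ± 0.336 h in high-fat mice and at 10.6 ± 0.355 h in control mice. Per3, a period gene, followed at 12.2 ± 0.475 h in high-fat mice and at 12.9 ± 0.42 h in control mice. Per2, a repressor of CLOCK and BMAL1, was the last of those that passed, at 15.9 ± 0.332 h in high-fat mice and at 15.7 ± 0.305 h in control mice. Bhlhe41, a repressor at E-boxes, passed the test of a rhythm difference (adjusted p = 0.0339) and the interaction (adjusted p = 0.00623). Its peak was at 13.5 ± 0.66 h in high-fat mice and at 9.89 ± 0.498 h in control mice. The Bhlhe41 mean of 6.70 lay under the highest nonspecific control of 7.59. Per1 also passed the interaction (adjusted p = 0.00823), and Bhlhe40 was higher in high-fat mice over the 6 times (0.20 ± 0.04, adjusted p = 0.00261). At ZT16, where 9.82% of all probe sets passed, 3 of the 10 genes passed, all higher in high-fat mice. The rhythm difference passed for 0.806% of all probe sets, the interaction for 7.56% and the mean diet difference for 7.32%.

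Rhythm calls among the transcripts of proteins that work with the receptors were few, against a background of 10.1% in high-fat mice and 6.42% in control mice. Of the REV-ERB corepressor genes, 4 of 7 were measured (Tbl1x, Tbl1xr1, Gps2 and Nrip1) and 0 passed on either diet. Of the ROR coactivators, 6 of 8 were measured and 1 passed on each diet. This was Med1, a Mediator subunit, in high-fat mice (0.17 ± 0.05, adjusted p = 0.0323) and Ncoa2 in control mice (0.32 ± 0.07, adjusted p = 0.00569). Whether those rhythms differ between diets was tested, and 0 of the 6 passed. Ncoa1 was higher in high-fat mice over the 6 times (0.14 ± 0.04, adjusted p = 0.0156), 1 of 6 against 7.32% of all probe sets. Ppargc1b passed the interaction (adjusted p = 0.0223), 1 of 6 against 7.56%. At ZT16 Ppargc1b differed by -1.04 ± 0.24 (adjusted p = 0.00471), 1 of 6 against 9.82%. Ppargc1b had a mean of 6.65, under the highest nonspecific control of 7.59. Of the genes of heme synthesis and breakdown, which supply or remove the REV-ERB ligand, 9 of 10 were measured and 0 passed the rhythm test on either diet. In that list Alas1, the rate-limiting enzyme of heme synthesis, was higher in high-fat mice at ZT16 (0.45 ± 0.14, adjusted p = 0.0372). That was 1 of the 9, at a time when 9.82% of all probe sets passed. Of the ubiquitin ligases that act on REV-ERB, 3 of 4 were measured and 0 cycled. Fbxw7 among them passed the interaction (adjusted p = 0.0307) and was higher in high-fat mice at ZT0 (0.41 ± 0.11, adjusted p = 0.0405). Each was 1 call of 3, against 7.56% of all probe sets for the interaction and 1.73% at ZT0. The Fbxw7 mean of 7.54 was also just under that control. Of the paralogues only Rorb was measured under 1 symbol, and its mean of 4.22 was close to the nonspecific controls' median of 3.89. It passed no rhythm test.

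Among genes known as receptor targets outside the clock, 11 of 12 were measured, and 0 were rhythmic in high-fat mice (10.1% of all probe sets) and 2 in control mice (6.42%). Lpl, lipoprotein lipase, had an amplitude of 0.20 ± 0.07 in high-fat mice (adjusted p = 0.115) and of 0.44 ± 0.07 in control mice (peak at 19.5 ± 0.601 h, adjusted p = 0.000135). Angptl4, an inhibitor of that lipase, had 0.25 ± 0.10 in high-fat mice (adjusted p = 0.234) and 0.55 ± 0.10 in control mice (peak at 23.1 ± 0.729 h, adjusted p = 0.00219). Neither passed the test of a rhythm difference between diets. Avpr1a, a vasopressin receptor, passed it (adjusted p = 0.0357), with fitted peaks at 10.2 ± 1.32 h in high-fat mice and at 22.1 ± 1.08 h in control mice. Its rhythm passed on neither diet alone. The Avpr1a mean of 5.56 lay under the highest nonspecific control of 7.59 and under the alternative low-value filter of 5.60. Over the 6 times Angptl4 was higher in high-fat mice by 0.81 ± 0.08 (adjusted p = 3.46e-08). It was the single call of the 11 in that test, which 7.32% of all probe sets passed. At single times 1 gene passed at ZT8 (background 1.58%), 1 at ZT12 (0.332%) and 2 at ZT16 (9.82%), all higher in high-fat mice. The rhythm difference passed for 1 of the 11 (background 0.806%) and the interaction for 1 (7.56%). Whether the receptors had a part in these differences was not tested.

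Genes whose daily course was most like those of the receptors were ranked by Pearson correlation of the 12 group means, over 10959 other genes. Most like Nr1d2 1416959_PM_at were Sardh (0.927), a mitochondrial sarcosine dehydrogenase, N6amt1 (0.915), a methyltransferase, Selenof (0.884), P4hb (0.88), a protein disulfide isomerase, and Dbp (0.879). Of these, Dbp had the amplitude closest to that of Nr1d2, with 0.95 in high-fat mice and 0.86 in control mice. Most opposite to Nr1d2 were Npas2 (-0.931), Sik2 (-0.899), a kinase, Ube2b (-0.896), a ubiquitin-conjugating enzyme, Ypel4 (-0.895) and the noncoding RNA Neat1 (-0.882). Most like Rora 1420583_PM_a_at were Tshr (0.953), the thyrotropin receptor, Npas2 (0.907), Ypel4 (0.898), Bcr (0.885) and Sipa1l3 (0.865). Npas2 and Ypel4 therefore stood in both the list opposite to Nr1d2 and the list like Rora. Tshr had fitted peaks at 19.7 h in high-fat mice and 23.7 h in control mice. Most opposite to Rora were Prr3 (-0.902), Atp1b1 (-0.902), a sodium pump subunit, Ngfr (-0.868), Fh1 (-0.864), fumarate hydratase, and Tex2 (-0.856). The names depend on the measure. Ranked by Spearman correlation, 1 of the 5 like and 0 of the 5 opposite to Nr1d2 were shared, and 3 and 2 for Rora.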

How the data were processed

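RNA of muscle stem cells was measured with 1 expression array per mouse. The authors deposited a log2 value for each probe set on each array, and the submitters' processing notes name RMA (robust multi-array averaging). The sources used here give neither its version nor its settings. Since the method sets arrays to a like level, a difference is relative to most other genes, and near background it is compressed. Precision is limited by the number of arrays.

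The platform annotation gave 1 symbol to 28898 of 45141 probe sets, several symbols to 551 and no symbol to 15692. Symbols of 28689 were updated by gene identifier. The 104 control probe sets were left out of the tests. All 28898 were fitted without a filter on low values, with R 4.3.3 and limma 3.58.1 (lmFit, eBayes with trend), all 47 mice together, two-sided, with Benjamini-Hochberg adjustment and a threshold of 0.05. Rhythms are F tests of a 24 h cosine and sine per diet. A rhythm difference is the diet by cosine and sine term with time as a factor. Diet differences, interaction and steps come from 12 group means. SE are limma's, for peaks by the delta method. All 7 probe sets also passed the low-value filter used as an alternative (40th percentile, 5.60). The model was tested on simulated data.

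The members and gene lists were chosen with earlier results of these data known. Lists were counted by each gene's probe set with the highest mean. Genes named from a list are those passing a test, at most 4 per list and test by smallest p, with all of the RORE-driven list. Values of some genes are given at further times or on the other diet. Most similar genes were the 5 highest and 5 lowest correlations among genes at or above the 40th percentile. Alternatives were the filter, 1 probe set per gene, array weights, equal medians, cyclic loess, eBayes without trend, a replicate or day block, 12 h terms, leaving out ZT16 and leaving out each mouse.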

Additional observations from a re-analysis of the deposited data

Results flagged for a closer look

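In 77 groups of 4 mice, 1 mouse of a group lay far from the other 3 in 4 cases, measured by Dixon's criterion, and chance gives about 1 in 20. In Nr1d2 1416959_PM_at, control ZT20 replicate 4 had 8.98 where the others lay at 8.19 to 8.30. In Nr1d2 1416958_PM_at, high-fat ZT20 replicate 3 had 6.03 where the others lay at 6.72 to 6.79, and control ZT12 replicate 2 had 8.31 where the others lay at 8.56 to 8.58. In Rora 1458145_PM_at, control ZT16 replicate 4 had 8.16 where the others lay at 8.24. The Nr1d2 1416959_PM_at diet difference at ZT20, -0.01 with all mice, was 0.18 without the mouse with the high value. Its sign also changed without high-fat ZT20 replicate 2 (0.0561) or replicate 4 (0.0615).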

How the results depend on the processing

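Of 3428 recomputed values of 67 results, 3261 kept direction and call, 75 lost a call, 9 gained one, 69 changed sign and 14 counts moved. The Nr1d2 rhythm calls held in every setting run on both diets. With collection day as a random block (correlation 0.128), the Rora high-fat rhythm of 1420583_PM_a_at gave an adjusted p of 0.0859, and 3 of the 7 probe sets passed on that diet. Its diet by time interaction passed with array weights (0.0318) and cyclic loess (0.0301), and ranged from 0.0328 to 0.111 with each mouse left out. Sign changes were all of differences that passed no test. With array weights the values were 0.0161 for the Nr1d2 diet difference at ZT20, 0.00297 for its mean over the 6 times, -0.00225 for that mean of Rora and -0.0048 for Rora from ZT8 to ZT12 in high-fat mice. With cyclic loess they were 0.0103 and 0.0105 for the Nr1d2 differences at ZT20 and over the 6 times, 0.0171 for Nr1d2 and 0.0149 for Rora from ZT8 to ZT12 in control mice, and -0.00826 for Rora from ZT16 to ZT20 in high-fat mice. With array medians set equal they were 0.00871 for the Nr1d2 difference at ZT20 and -0.00106 for Rora from ZT8 to ZT12 in high-fat mice. The cause was not tested.

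With each mouse left out in turn, the Nr1d2 diet difference ranged from -0.0452 to 0.119 at ZT8, -0.0529 to 0.0779 at ZT12, -0.0185 to 0.193 at ZT16, -0.134 to 0.176 at ZT20 and -0.0275 to 0.0241 over the 6 times. The mean difference of Rora ranged from -0.00999 to 0.011. The step from ZT8 to ZT12 ranged from -0.119 to 0.012 (high-fat) and -0.111 to 0.053 (control) for Nr1d2, and from -0.042 to 0.0424 (high-fat) and -0.0859 to 0.0399 (control) for Rora. Rora changed by -0.0564 to 0.0604 from ZT16 to ZT20 in high-fat mice and by -0.0602 to 0.0115 from ZT0 to ZT4 in control mice.

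Same-numbered mice of the diets at a time did not deviate together (23 pairs, r from -0.196 to 0.087, median -0.005, none over 0.1). Low correlations cannot exclude that these mice were handled as pairs, and the labels give only a replicate number. With the replicate block, the control rhythms of Rora 1436326_PM_at (adjusted p = 0.065) and 1436325_PM_at (0.055) were no longer called, and 6 (high-fat) and 4 (control) of the 7 probe sets passed. The Rora 1420583_PM_a_at rhythm had adjusted p-values of 0.0128 (high-fat) and 0.00162 (control) with the block.

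Counts over the whole table moved most. The 2928 rhythmic probe sets in high-fat mice became 1761 of the 10961 genes left with both 1 probe set per gene and the filter (16.1%, against 10.1%), 901 with the day block, 4437 with 12 h terms and 1513 without the ZT16 mice. The 1856 in control mice became 1095 (9.99%, against 6.42%; 1 probe set per gene with the filter), 3204 (array weights), 448 (day block) and 3046 (12 h terms). The 233 rhythm differences became 1004 (array weights) and 27 (a cosine and sine as the shared time term). The 2114 mean diet differences became 1189 (10.8%, against 7.32%) with 1 probe set per gene and the filter, and the 2184 interactions 1286 (11.7%, against 7.56%; the same setting) and 4349 (array weights).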
